A study of Mus musculus with 19 samples.

Results

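MAP kinase phosphatases and the Sprouty and Spred proteins are feedback inhibitors of growth factor and stress kinase signalling. Here 10 of their genes were followed in C2C12 cells, a mouse myoblast line, under endoplasmic reticulum stress: the phosphatase genes Dusp1, Dusp2, Dusp4, Dusp5, Dusp6, Dusp8 and Dusp10, the Sprouty genes Spry2 and Spry4, and Spred1. They were taken by name, through their Ensembl identifiers, from the 55401 gene identifiers of each library. Earlier results of these data were known when they and the gene lists below were chosen, so shares called among them are descriptions. All 10 passed the filter on low counts, which left 18039 genes in the tests.

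The 7 groups, 19 libraries of polyadenylated RNA in all, came from wild-type C2C12 cells. For 2 h, 6 h or 12 h the cells had either DMSO, the vehicle, or thapsigargin at 100 nM, which blocks the pump that fills the endoplasmic reticulum with calcium. A recovery group had 6 h of thapsigargin and then 48 h without it, and no vehicle group has that total time in culture, so recovery and time cannot be told apart. Groups held 3 libraries each, except DMSO and thapsigargin at 12 h, which held 2. All groups are 1 cell line. Nothing in the labels tells whether the replicates came from separate cultures, and p-values cover the spread between these libraries alone, which may be technical.

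Mitogen-activated protein (MAP) kinases of the ERK, JNK and p38 families are switched on by phosphorylation of a threonine and a tyrosine in the same loop. Dual-specificity phosphatases remove both phosphates, and each has its own preference among the kinases and its own place in the cell. Sprouty and Spred proteins act further upstream, where they restrain signalling from receptor tyrosine kinases through RAS and RAF to ERK. Many of these inhibitors are themselves transcribed in response to ERK activity, which closes a negative feedback loop, and in myoblasts ERK activity favours proliferation over differentiation.

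Promoters were examined for 8 of the 10 genes, and not for Dusp4 and Spry4. These 8 came from a RefSeq promoter table of build GRCm38.p6, each 250 bases before and 50 after the transcription start. A search of both strands for 6 motifs found a match in 4 of these promoters, and these stretches are shown because they hold all the matches found. No relation to the genes' courses was tested. The motifs were the cAMP response element TGACGTCA, in 1.79% of the 32851 promoters of the table, the CEBP-ATF element TGATGNAAN (3.95%), the AP-1 site TGANTCA (7.81%), the serum response factor's CArG box (1.63%), the ETS site CCGGAAGT (3.89%) and the EGR site GCGGGGGCG (2.91%). The letters of one motif did not have to be clear of another's. In the lines that follow, capitals mark the matches and all sequences run 5′ to 3′ on the gene's strand.
Dusp8, chr7:142095325-142095434, minus strand: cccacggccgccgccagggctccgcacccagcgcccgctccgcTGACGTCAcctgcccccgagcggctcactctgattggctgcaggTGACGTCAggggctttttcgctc
Dusp1, chr17:26508597-26508626, minus strand: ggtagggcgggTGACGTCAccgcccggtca
Dusp2, chr2:127336009-127336118, plus strand: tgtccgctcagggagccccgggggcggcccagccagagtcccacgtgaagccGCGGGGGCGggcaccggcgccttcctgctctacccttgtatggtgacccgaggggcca
Dusp5, chr19:53528995-53529104, plus strand: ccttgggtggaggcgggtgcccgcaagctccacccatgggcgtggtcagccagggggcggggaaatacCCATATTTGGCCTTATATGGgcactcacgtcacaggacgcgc

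The Dusp8 promoter held 2 cAMP response elements, which begin 107 and 63 bases before the start, and 13 of all promoters (0.0396%) held 2 or more. Dusp1 held 1, at 143 bases before its RefSeq start, and a 110-base stretch that holds it overlaps an exon of Dusp1 in GENCODE M21. The Dusp2 promoter held 1 EGR site, at 98 bases before the start. In Dusp5 a pair of CArG boxes stood end to end, from 82 and 72 bases before the start, in a stretch that also overlaps an exon of the antisense transcript AC137853.2, and 6 of all promoters (0.0183%) held 2 or more. Dusp6, Dusp10, Spry2 and Spred1 held none of the 6. These are matches of letters, and no binding was measured.

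Sequencing depth was 17.31 to 40.96 M gene reads per library, and the 12 h libraries were the shallowest. Mitochondrial transcripts took 15.797% of gene reads in DMSO 2 h replicate 3 and 14.886% in recovery replicate 1, against 1.411% to 3.068% in the other libraries. Stress genes of recovery replicate 1 went in both directions from the other two recovery libraries. Ddit3 was at 197 CPM against 23.8 and 41.6 and Chac1 at 145 against 69.5 and 87.6, whereas Hspa5 was at 293 against 892 and 865 and Atf3 at 7.81 against 20.5 and 22.1. Its Atf4 level of 510 CPM lay between the other two, at 503 and 650. Libraries also differed in how long transcripts compared with short ones. For this, each protein-coding gene's log2 level was taken relative to its mean over the 19 libraries. Genes were grouped by their longest transcript, of at least 4809 bases or of at most 2175. The median of the long group minus that of the short group ran from 0.60 to 0.97 in the 2 h libraries. It ran from -1.32 to 0.00 in the 6 h and recovery libraries and from 0.41 to 0.58 in the 12 h libraries. All 7 stress response genes used as a check of the treatment (Atf4, Ddit3, Atf3, Chac1, Trib3, Hspa5 and Asns) were higher with thapsigargin at 2 h, 6 h and 12 h. Myoblast markers summed to 1031 to 9352 CPM, and the epithelial marker Epcam was at 0 in all libraries.

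Levels are given as counts per megaread (CPM) on library sizes scaled by TMM, a normalization that assumes most genes unchanged. Differences are log2 values with an approximate standard error (SE), the absolute log2 difference divided by the square root of edgeR's F statistic. A gene was called at a Benjamini-Hochberg adjusted p under 0.05 in edgeR's quasi-likelihood test over all 18039 genes, two-sided. To compare levels between genes, CPM were divided by exon length in kilobases. In DMSO at 2 h, Dusp4 stood highest at 142 ± 23.4 CPM per kb (SD, n = 3). Dusp1 (55.7 ± 18.8), Dusp10 (44.9 ± 14.3), Dusp6 (44.3 ± 3.66) and Dusp5 (40.3 ± 1.99) followed, and these 4 did not differ beyond their spread. Spry2 (27.2 ± 8.6) and Spred1 (22.1 ± 4.01) came next, also within their spread, and then Dusp8 (8.44 ± 0.799), Spry4 (7.97 ± 1.01) and Dusp2 (4 ± 2.52).

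**Figure D1:**
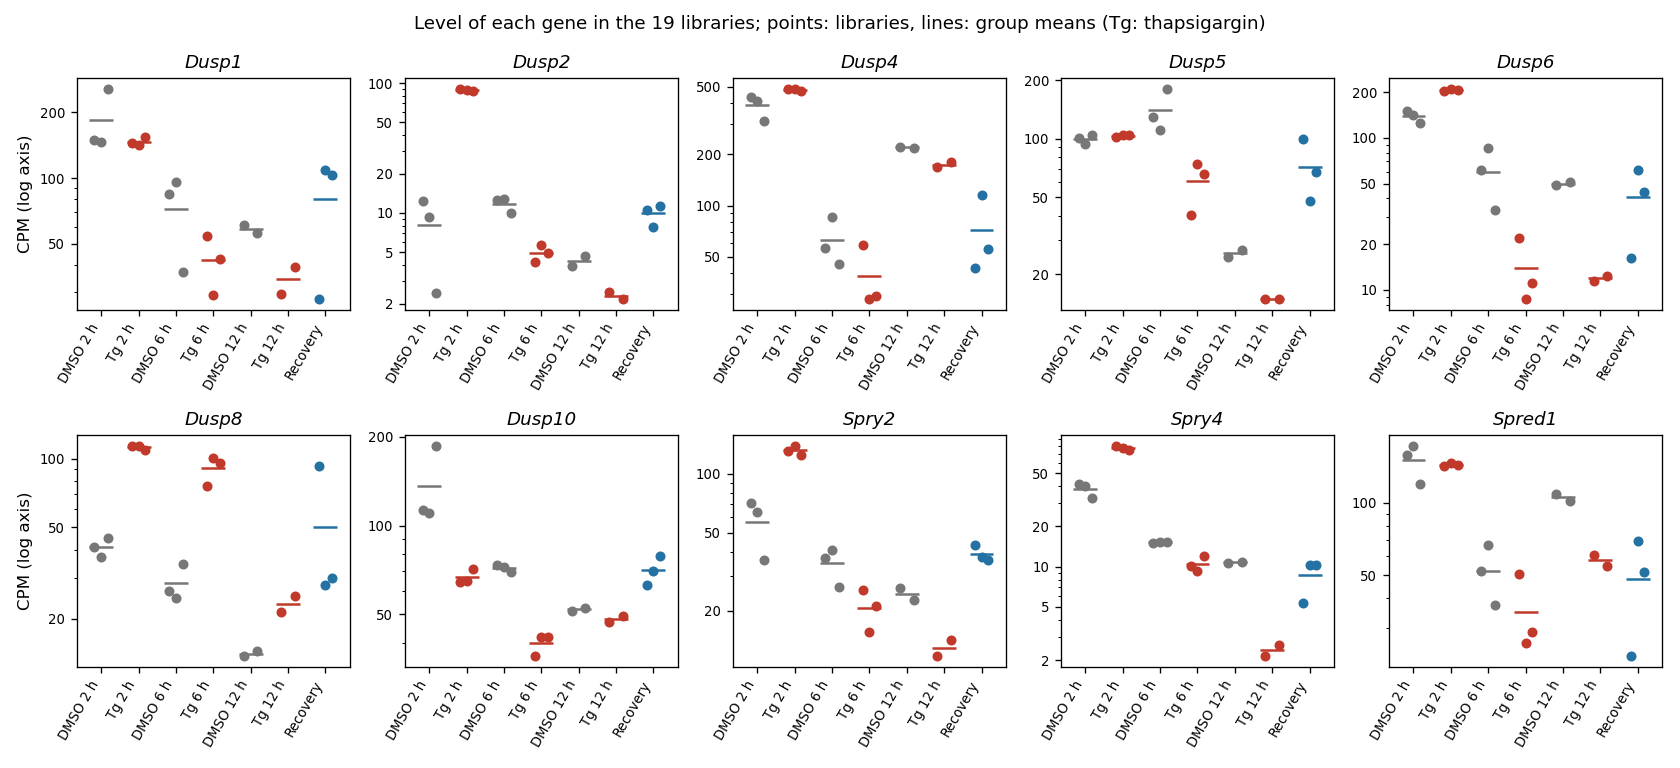
Level of each of the 10 genes in the 19 libraries, in CPM on a log axis with a range of its own for each gene. Points are libraries and lines are group means, in grey for DMSO, red for thapsigargin (Tg) and blue for recovery. Dusp2 stood at 87 to 90.7 CPM in the 3 thapsigargin libraries at 2 h and at 12.9 CPM or less in every library outside that group.

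After 2 h of thapsigargin the 10 genes did not all move in 1 direction. Dusp2, Dusp8, Spry2 and Spry4 rose, Dusp10 fell, and Dusp1, Dusp4, Dusp5, Dusp6 and Spred1 did not pass the test. With 5 of 10 called, the share was above the 4.52% of all tested genes called in this comparison. In the higher direction it was 4 of 10 against 3.01%, and in the lower 1 of 10 against 1.51%. The median log2 difference of the 10 was 0.44, against -0.04 for all genes tested.

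Dusp2 encodes a nuclear phosphatase of ERK and p38 first known as an immediate early gene of lymphocytes. It stood at 12.3, 9.33 and 2.43 CPM in DMSO and at 90.7, 87.7 and 87 CPM in thapsigargin at 2 h, so the groups were far apart. The log2 difference was 3.47 ± 0.41, or 11-fold (edgeR adjusted p = 9.9e-05). The lowest DMSO value belongs to the library with the high mitochondrial share. Without that library the log2 difference was 3.03.

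Dusp8 encodes a phosphatase that prefers JNK and p38 over ERK. It stood at 41, 37.3 and 45 CPM in DMSO and at 114, 114 and 109 CPM in thapsigargin at 2 h, a log2 difference of 1.45 ± 0.34 (edgeR adjusted p = 0.023). The groups did not overlap, but the call ended when any 1 of the 6 libraries was left out (adjusted p from 0.056 to 0.083). Its exons overlap those of the antisense transcript Gm32786, and whether the counting used strand is not given in the sources used here.

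The Sprouty genes moved in the same direction at 2 h. Spry2 was at 70.5, 63.3 and 36.4 CPM in DMSO and at 130, 139 and 125 CPM in thapsigargin, a log2 difference of 1.21 ± 0.25 (edgeR adjusted p = 0.0094). Spry4 was at 41.4, 39.8 and 32.4 CPM in DMSO and at 80.6, 77.4 and 75 CPM in thapsigargin, a log2 difference of 1.04 ± 0.21 (adjusted p = 0.011). Neither gene had overlapping groups. The Spry4 call ended without thapsigargin 2 h replicate 1 (adjusted p = 0.053) and with libraries scaled by total count (0.088).

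Dusp10, another JNK and p38 phosphatase, went the other way from Dusp8. It stood at 113, 110 and 187 CPM in DMSO and at 64.1, 64.9 and 71.2 CPM in thapsigargin at 2 h. All 3 thapsigargin values lay below the lowest DMSO value. The log2 difference was -1.04 ± 0.19 (edgeR adjusted p = 0.0046), and with total-count scaling it was no longer called (adjusted p = 0.18).

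The 5 other genes lay closer to vehicle at 2 h. Dusp6, the cytoplasmic phosphatase specific for ERK, was at 149, 142 and 126 CPM in DMSO and at 202, 211 and 206 CPM in thapsigargin. These groups did not overlap, yet the log2 difference of 0.57 ± 0.41 did not pass (edgeR adjusted p = 0.55). The nuclear phosphatase genes Dusp1 (-0.33 ± 0.42), Dusp4 (0.31 ± 0.34) and Dusp5 (0.05 ± 0.26), and Spred1 (-0.06 ± 0.33), had adjusted p from 0.76 to 0.97. A normalization by total count moved the median log2 difference of all genes at 2 h from -0.04 to 0.167, and the calls over all genes from 543 higher and 273 lower to 470 and 48. Of the 10 genes, 3 were then higher and 0 lower.

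**Figure D2:**
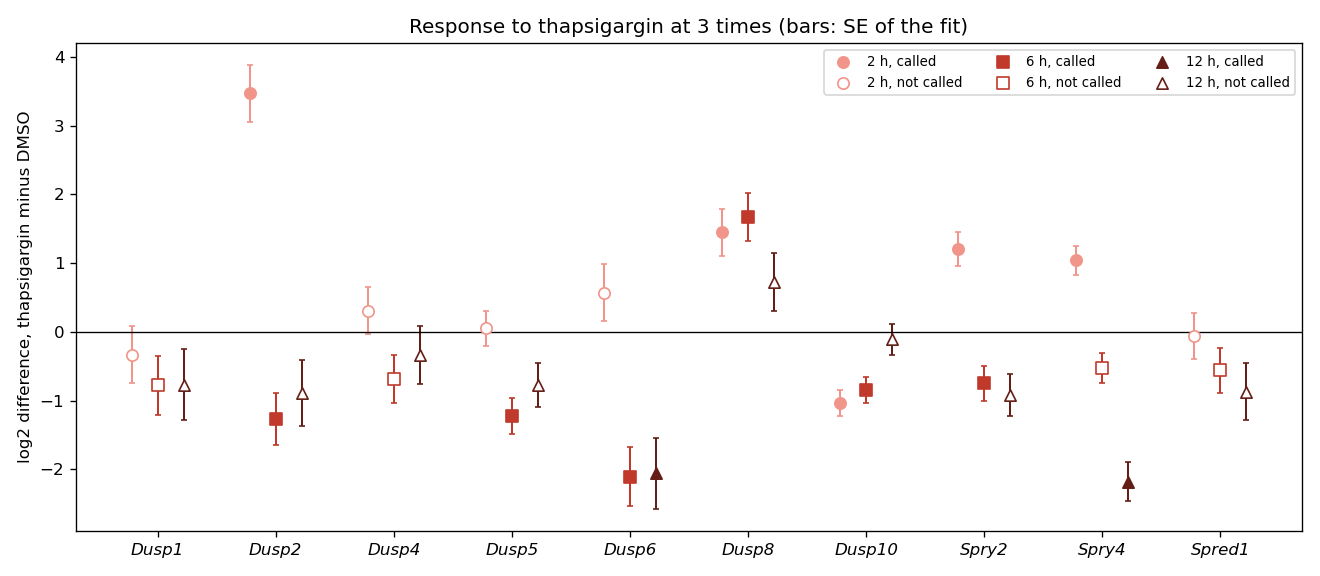
Log2 difference of thapsigargin against DMSO for each of the 10 genes at 2 h, 6 h and 12 h, with bars of the approximate SE derived from edgeR's F statistic. Filled points passed an adjusted p of 0.05; Dusp2 stood at 3.47 at 2 h and -1.27 at 6 h, and Dusp8 at 1.45 and 1.67.

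At 6 h Dusp2, Dusp5, Dusp6, Dusp10 and Spry2 were below vehicle and Dusp8 was above it. That is 6 of 10 called, against 21.8% of all tested genes, with 5 of 10 lower against 8.79% and 1 higher against 13.0%. The median log2 difference was -0.77, against 0.01 over all genes tested.

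Dusp6 fell furthest. It stood at 61, 85.4 and 33.3 CPM in DMSO and at 21.8, 8.68 and 11.1 CPM in thapsigargin at 6 h, with no overlap. The log2 difference was -2.11 ± 0.43, a 4.31-fold lower level (edgeR adjusted p = 0.002). Dusp5, whose product holds ERK inactive in the nucleus, was at 129, 111 and 181 CPM in DMSO and at 40.5, 74 and 66 CPM in thapsigargin, a log2 difference of -1.22 ± 0.26 (adjusted p = 0.0032). Its exons overlap those of an antisense transcript.

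Dusp2, the gene with the highest rise at 2 h, was below vehicle at 6 h. It stood at 12.5, 12.9 and 10 CPM in DMSO and at 4.19, 5.66 and 4.9 CPM in thapsigargin, a log2 difference of -1.27 ± 0.38 (edgeR adjusted p = 0.024). The groups did not overlap. The call ended with total-count scaling (adjusted p = 0.086). An offset for the length and GC content of each gene's longest transcript also ended it (-1.0, adjusted p = 0.062). So did leaving out DMSO 6 h replicate 1 or 2 or thapsigargin 6 h replicate 1 or 3 (0.061 to 0.083).

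Dusp10 and Spry2 also stood below vehicle at 6 h. Dusp10 was at 73.3, 72.3 and 69.8 CPM in DMSO and at 36, 41.7 and 41.9 CPM in thapsigargin, a log2 difference of -0.85 ± 0.19 (edgeR adjusted p = 0.0038; 0.091 with total-count scaling). Spry2 was at 37.1, 40.9 and 26.5 CPM in DMSO and at 25.5, 15.5 and 21 CPM in thapsigargin, a log2 difference of -0.75 ± 0.25 (adjusted p = 0.038). The lowest DMSO value of Spry2 lay 1 CPM above the highest thapsigargin value. Its call ended with total-count scaling (0.27), without the filter on low counts (0.073), and without DMSO 6 h replicate 1 or 2 or thapsigargin 6 h replicate 2 or 3 (0.09 to 0.15).

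Dusp8 was the only one of the 10 called higher at 6 h. It stood at 26.4, 24.7 and 34.6 CPM in DMSO and at 75.6, 101 and 95.2 CPM in thapsigargin, a log2 difference of 1.67 ± 0.35, or 3.18-fold (edgeR adjusted p = 0.0023). The lowest thapsigargin library lay above the highest DMSO library. Per kilobase of exon, Dusp8 at 18.6 ± 2.77 CPM was second to Dusp5 (24.3 ± 7.08) in thapsigargin at 6 h, within their spread. In DMSO at 6 h it stood among the lowest of the 10, at 5.86 ± 1.09.

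Spry4, Dusp1, Dusp4 and Spred1 had values below vehicle at 6 h that did not pass. Spry4 was at 15, 15.2 and 15.3 CPM in DMSO and at 10.2, 9.27 and 12 CPM in thapsigargin, a log2 difference of -0.53 ± 0.22 (edgeR adjusted p = 0.096). The others lay at -0.78 ± 0.43 (Dusp1), -0.69 ± 0.35 (Dusp4) and -0.56 ± 0.33 (Spred1). In each of these 3, thapsigargin replicate 1 lay inside the range of the DMSO libraries. Without both libraries of high mitochondrial share, neither of them a 6 h library, the fit also called Spry4 (-0.56, adjusted p = 0.0015) and Dusp1 (-0.81, 0.035), with 37.0% of all genes called. The offset for length and GC content called Spry4 (-0.49, 0.031) and Spred1 (-0.78, 0.001), and DESeq2 called Spry4 (-0.49, 0.019). Dusp4 was called without thapsigargin 6 h replicate 1 (-1.11, 0.039).

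Markers of other cell types moved with thapsigargin as well. At 6 h the 5 epithelial markers summed to 16 to 28.8 CPM in thapsigargin against 1.12 to 3.36 CPM in DMSO, with Epcam at 0 in both. The 4 endothelial markers summed to 2.64 to 4.79 CPM against 0.514 to 0.61, and the 5 macrophage markers to 4.13 to 5.64 against 6.66 to 9.49. Cd68 of the macrophage list had means of 4.37 CPM in thapsigargin and 7.48 in DMSO and was not called. Lyz2, the only macrophage marker called at 6 h, was higher, with means of 0.476 and 0.0744 CPM. The 4 adipocyte markers summed to 1.18 to 1.31 CPM against 0.237 to 0.436, and the 8 myoblast markers to 2057 to 3652 against 3161 to 5570. Of the myoblast markers, Myf5 was called higher at 6 h, and Pax7, Msc and Cdh15 were called lower. At 2 h the epithelial sum was 5.57 to 7.93 CPM against 1.59 to 3.12, with Cldn4 called higher, and the macrophage sum was 2.41 to 3.07 against 3.75 to 11.2. Cdh1 of the epithelial list went the other way at 2 h, with means of 0.522 CPM in thapsigargin and 1.3 in DMSO, and was not called. At 12 h the endothelial sum was 2.17 to 2.19 CPM against 0.527 to 0.83, with Tek called higher, and Cd36 of the adipocyte list was called higher too. Fabp4 of that list had means of 0.97 CPM in thapsigargin and 1.5 in DMSO at 12 h, and was not called. In recovery the epithelial sum was 1.64 to 6.2 CPM and the endothelial sum 0.89 to 1.45, and Krt8, Krt18, Cldn4, Cdh5, Kdr, Cd36 and Lyz2 were called lower than in thapsigargin at 6 h. Their part in the results was not tested. In bulk RNA, fewer cells of a type and less RNA per cell cannot be told apart.

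At 12 h, with 2 libraries in each group, Dusp6 and Spry4 were called lower and none of the 10 higher, against 6.77% of all tested genes called lower, 6.29% higher and 13.1% in all. The median log2 difference was -0.82, against 0.01 for all genes. Spry4 was at 10.7 and 10.8 CPM in DMSO and at 2.14 and 2.59 CPM in thapsigargin. Its log2 difference was -2.18 ± 0.28, a 4.54-fold lower level (edgeR adjusted p = 7.5e-05), and it was called in every alternative run.

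Dusp6 stood at 49.2 and 50.9 CPM in DMSO and at 11.5 and 12.4 CPM in thapsigargin at 12 h. The log2 difference was -2.06 ± 0.52 (edgeR adjusted p = 0.015), close in size to that at 6 h. Both thapsigargin values lay far below both vehicle values, but the call ended with total-count scaling (adjusted p = 0.088) and without any 1 of the 4 libraries (0.065 to 0.13). A group left with 1 library is then assumed to vary like the other groups.

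The other 8 genes did not pass at 12 h. Dusp1, Dusp2, Dusp4, Dusp5, Dusp10, Spry2 and Spred1 had values below vehicle. Their log2 differences ran from -0.92 ± 0.30 for Spry2 (edgeR adjusted p = 0.059) to -0.11 ± 0.23 for Dusp10 (0.88). Dusp8 was at 13.7 and 14.4 CPM in DMSO and at 21.3 and 25.2 CPM in thapsigargin, a log2 difference of 0.72 ± 0.42 (adjusted p = 0.33). Without both libraries of high mitochondrial share, 7 of the 10 were called, 6 lower and Dusp8 higher (0.71, adjusted p = 0.011). Over all genes that setting called 25.5%. The length and GC offset also called Spry2 (-0.95, 0.033) and Spred1 (-0.75, 0.0087), and DESeq2 called Spry2 (-0.88, 0.032).

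The change in response between times was tested directly, as the difference at 6 h minus that at 2 h. Dusp2, Dusp6, Spry2 and Spry4 had a lower response at 6 h, 4 of 10 against 1.87% of all tested genes called lower and 3.99% in all. None of the 10 had a higher response, against 2.12%. The change was -4.73 ± 0.55 in Dusp2 (edgeR adjusted p = 1.5e-04), -2.68 ± 0.59 in Dusp6 (0.016), -1.96 ± 0.35 in Spry2 (0.0037) and -1.56 ± 0.30 in Spry4 (0.0074). For Dusp2 and Spry2 a response above vehicle at 2 h was followed by one below it at 6 h. With total-count scaling the calls for Dusp6 (0.095) and Spry4 (0.14) ended.

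For the JNK and p38 phosphatase genes no change in response between 2 h and 6 h passed the test. The change was 0.22 ± 0.48 for Dusp8 (edgeR adjusted p = 0.93) and 0.19 ± 0.26 for Dusp10 (0.87), and these do not show that the responses were equal. Dusp5 changed by -1.27 ± 0.37, which did not pass (0.068). It did pass with total-count scaling (-1.36, 0.025), with the length and GC offset (-1.11, 0.015) and without both libraries of high mitochondrial share (-1.39, 0.015). From 6 h to 12 h only the Spry4 response was called, at -1.65 ± 0.35 (adjusted p = 0.043), against 0.532% of all tested genes called lower, 0.0388% higher and 0.571% in all. That call ended with total-count scaling (0.41), without the filter on low counts (0.16), with the replicate number as a block (0.092) and without any 1 library (0.058 to 0.37).

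**Figure D3:**
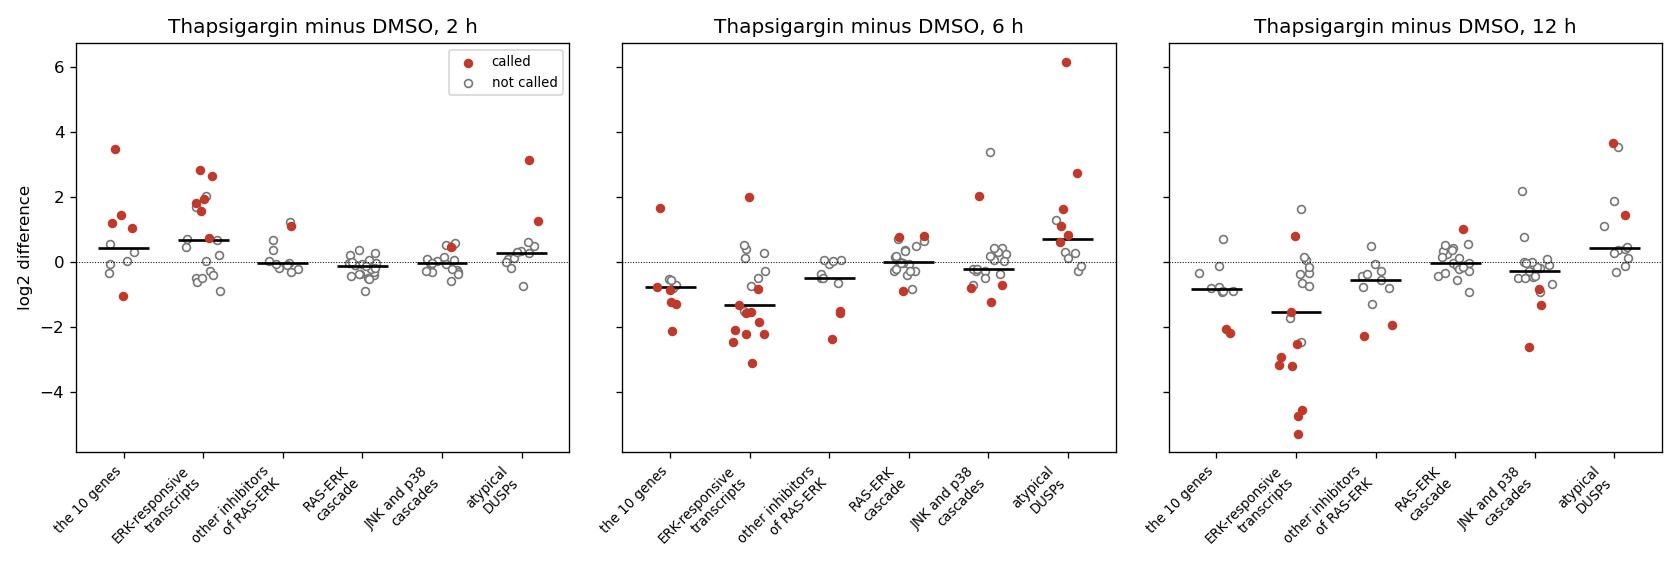
Log2 difference of thapsigargin against DMSO at 2 h, 6 h and 12 h for each tested gene of the 10 and of 5 lists of related genes. Points are genes, in red where called, and black lines are list medians; for the ERK-responsive transcripts these were 0.68, -1.32 and -1.53. The topmost point at 6 h is Dusp26, which had no count in DMSO at 6 h, so its fitted difference depends on the prior count of the model.

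Genes of the same pathways were counted in lists, to be read against all tested genes, of which 3.01%, 13.0% and 6.29% were called higher at 2 h, 6 h and 12 h and 1.51%, 8.79% and 6.77% lower. Of 19 transcripts known to respond to ERK, 6 rose and 0 fell at 2 h, 1 rose and 10 fell at 6 h, and 1 rose and 8 fell at 12 h. Egr1, an immediate early transcription factor, stood at 166 ± 138 CPM in DMSO and 1173 ± 57.2 in thapsigargin at 2 h (SD, n = 3), a log2 difference of 2.82 ± 0.47 (edgeR adjusted p = 0.0021). At 12 h it stood at 120 ± 0.159 and 4.51 ± 0.173 CPM (n = 2), a difference of -4.73 ± 0.63 (9.4e-05). With total-count scaling the counts were 4 and 0 at 2 h, 1 and 8 at 6 h, and 0 and 7 at 12 h. The list medians were 0.68, -1.32 and -1.53.

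Myc, the 1 ERK-responsive transcript called higher at 6 h, rose from 81.5 ± 20.4 CPM in DMSO to 327 ± 29.2 CPM in thapsigargin (SD, n = 3). Fosb and Egr2, immediate early genes as well, were also higher at 2 h, by 2.66 ± 0.40 and 1.95 ± 0.37 on the log2 scale. The largest fall at 6 h was that of Epha4, a receptor tyrosine kinase gene, at -3.09 ± 0.32 (edgeR adjusted p = 5.0e-06). All of these genes share libraries with the 10.

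Of 11 other inhibitors of receptor, RAS and ERK signalling that were tested, 1 rose at 2 h, 3 fell at 6 h and 2 fell at 12 h. Errfi1, whose product inhibits the EGF receptor, stood at 623 ± 32.4 CPM in DMSO and 1337 ± 132 in thapsigargin at 2 h (SD, n = 3), a log2 difference of 1.10 ± 0.29 (edgeR adjusted p = 0.04). At 6 h it stood at 243 ± 50.3 and 47.5 ± 12.6 CPM, a difference of -2.35 ± 0.30 (4.1e-05). Spred3, a relative of Spred1, and Il17rd, also known as Sef, fell at 6 h by 1.57 ± 0.21 and 1.5 ± 0.37 on the log2 scale. At 12 h Errfi1 and Spry1 were lower, by 2.26 ± 0.37 and 1.92 ± 0.52. With total-count scaling the counts were 0, 2 and 1.

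The 3 further MAP kinase phosphatase genes were Dusp7, Dusp9 and Dusp16. Dusp16, a JNK and p38 phosphatase gene, was at 50.4 ± 9.28 CPM in DMSO and 122 ± 4.83 in thapsigargin at 2 h (SD, n = 3), a log2 difference of 1.28 ± 0.33 (edgeR adjusted p = 0.038). At 6 h it was at 22.3 ± 6.36 and 61.4 ± 21.5 CPM, a difference of 1.46 ± 0.33 (0.0048). Dusp9 fell at 2 h by 0.73 ± 0.16 on the log2 scale. With total-count scaling Dusp16 was called at 6 h and none of the 3 at 2 h.

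Of 12 atypical dual-specificity phosphatase genes, which lack the kinase-binding domain of the MAP kinase phosphatases, 2 rose at 2 h, 6 at 6 h and 2 at 12 h, and none fell. Dusp14 stood at 31.7 ± 7.46 CPM in DMSO and 99 ± 13.6 in thapsigargin at 6 h (SD, n = 3), a log2 difference of 1.64 ± 0.27 (edgeR adjusted p = 3.4e-04). With total-count scaling 1, 7 and 3 of them were higher.

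Genes of the kinases themselves were counted too. Of 21 genes of the RAS-ERK cascade, 0 were called at 2 h by edgeR (1 at an unadjusted p under 0.05, and 0 by DESeq2). At 6 h 3 were called: Mapk3, which encodes an ERK, was lower (-0.87 ± 0.29), and Rps6ka2 and Ksr1 were higher (0.80 ± 0.21 and 0.77 ± 0.26). At 12 h 1 was called, Rps6ka2, at 1.01 ± 0.26 (edgeR adjusted p = 0.015). Of 19 genes of the JNK and p38 cascades, 1 rose at 2 h, 1 rose and 3 fell at 6 h and 3 fell at 12 h. Map2k6, an activator of p38, was lower at 6 h by 1.22 ± 0.18 and at 12 h by 2.60 ± 0.23 on the log2 scale. Of 19 growth factor and receptor tyrosine kinase genes, 0 were called at 2 h by edgeR (4 at an unadjusted p under 0.05, and 3 by DESeq2), 2 rose and 2 fell at 6 h, and 3 fell at 12 h. Without both libraries of high mitochondrial share those last counts were 2 and 1, 3 and 8, and 2 and 10, while 10.4%, 37.0% and 25.5% of all genes were called at 2 h, 6 h and 12 h.

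In recovery, levels were compared with both 6 h groups, and the comparisons with vehicle and with drug share the recovery libraries. Against thapsigargin at 6 h, Dusp6, Dusp10 and Spry2 rose and 0 fell by edgeR (1 at an unadjusted p under 0.05, Dusp8). That is 3 of 10 higher against 11.6% of all tested genes, and 0 lower against 13.9%, with 25.5% called in all. The median log2 difference was 0.86, against 0.04 over all genes.

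Dusp6 stood at 16.2, 61.8 and 44 CPM in recovery, a log2 difference of 1.55 ± 0.42 from thapsigargin at 6 h (edgeR adjusted p = 0.012). Recovery replicate 1 lay within the range of the thapsigargin libraries (8.68 to 21.8 CPM) and the other two above it. Dusp10 stood at 63, 70 and 78.8 CPM, all above the 3 thapsigargin libraries, a difference of 0.82 ± 0.19 (adjusted p = 0.0042). Spry2 stood at 43.3, 37.5 and 36.3 CPM, also above all 3, a difference of 0.92 ± 0.25 (0.012). With total-count scaling none of these 3 was called (0.078, 0.11 and 0.21). The Dusp6 call also ended without thapsigargin 6 h replicate 2 or 3 (0.056) or recovery replicate 2 (1.12, adjusted p = 0.055), and the Spry2 call without thapsigargin 6 h replicate 2 (0.058).

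Recovery replicate 1, the library with a mitochondrial share of 14.886%, stood apart in several of the 10. Dusp8 was at 93.2 CPM in it and at 28.1 and 30 CPM in replicates 2 and 3, so that the first lay within the thapsigargin range and the others within the DMSO range of 24.7 to 34.6 CPM. Dusp1 was at 27.9 CPM against 109 and 103, and Dusp4 at 43.1 CPM against 116 and 55.5. Spred1 was at 23 CPM against 69.4 and 51.5. Without this library, Dusp8 was lower than in thapsigargin at 6 h (-1.65, edgeR adjusted p = 8.8e-06), and Dusp1 (1.33, 0.0067), Dusp4 (1.15, 0.015) and Spred1 (0.78, 0.04) were higher. Then 7 of the 10 were called, with 29.9% of all genes. With all libraries, Dusp8 was also called lower with total-count scaling (-1.29, 5.4e-04), with the length and GC offset (-1.18, 0.0066) and without the filter on low counts (-0.87, 0.048).

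**Figure D4:**
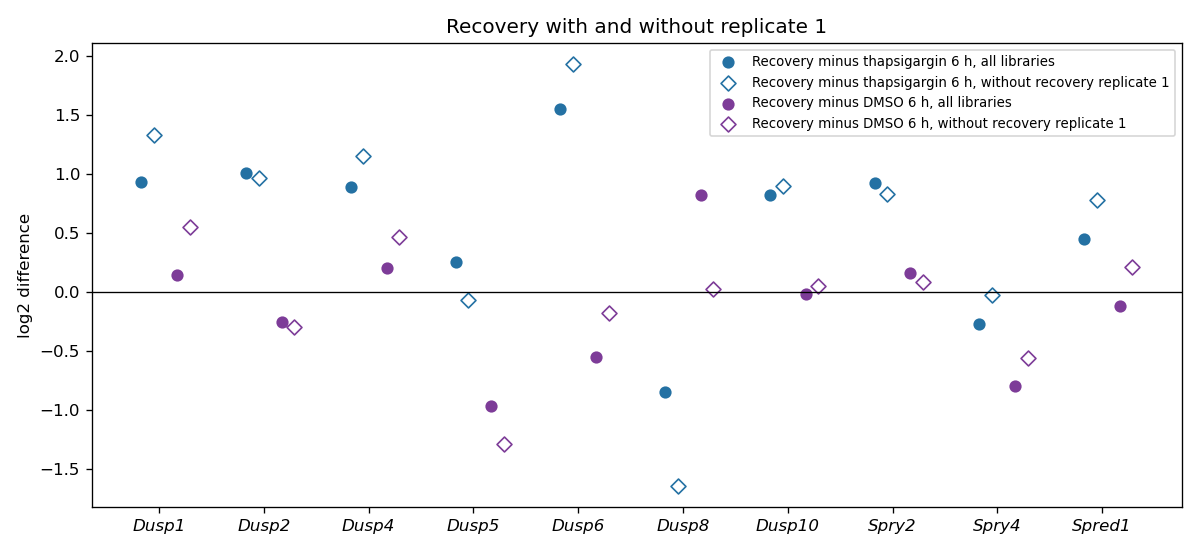
Log2 difference of recovery against thapsigargin at 6 h (blue) and against DMSO at 6 h (purple) for each of the 10 genes. Filled circles use all libraries and open diamonds leave out recovery replicate 1; against DMSO, Dusp8 went from 0.82 to 0.02.

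Against DMSO at 6 h, edgeR called 0 of the 10 genes in recovery, with 0.327% of all tested genes called, 0.205% higher and 0.122% lower. At an unadjusted p under 0.05 there were 3, Dusp5 (-0.97 ± 0.26), Dusp8 (0.82 ± 0.34) and Spry4 (-0.80 ± 0.22), and DESeq2 called 1, Spry4. Spry4 stood at 5.32, 10.3 and 10.3 CPM in recovery, all below the DMSO range of 15 to 15.3 CPM. Dusp5 stood at 100, 47.5 and 67.2 CPM, all below the DMSO range of 111 to 181 CPM. Without recovery replicate 1, Dusp5 was called (-1.29, adjusted p = 0.025) and the Dusp8 difference was 0.02. The other 7 genes lay between -0.55 ± 0.41 (Dusp6) and 0.20 ± 0.34 (Dusp4).

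Of the pathway lists, 7 ERK-responsive transcripts rose and 1 fell from thapsigargin at 6 h to recovery, and 3 of the 11 other inhibitors rose, where 11.6% of all tested genes rose and 13.9% fell. These 3 were Errfi1 (2.08 ± 0.30), Il17rd (1.93 ± 0.38) and Spred3 (1.91 ± 0.22 on the log2 scale). Dusp16 fell by 1.30 ± 0.33, as did 4 of the 12 atypical phosphatase genes, among them Dusp14 by 1.83 ± 0.27. Against DMSO at 6 h, 2 of the 19 ERK-responsive transcripts were lower in recovery, Hbegf (-1.37 ± 0.25) and Plaur (-1.11 ± 0.20).

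The vehicle groups themselves differed between times, and each thapsigargin value is read against its own vehicle. The libraries of 2 h, 6 h and 12 h also differed in the length trend given above. Time in culture and such differences between libraries therefore cannot be told apart. From 2 h to 6 h in DMSO, 7 of the 10 were lower and 0 higher, where 25.0% of all tested genes were called lower, 24.6% higher and 49.6% in all. Of the 7 stress response genes, 5 were higher over this step and 0 lower. On the log2 scale Chac1 rose by 4.04 ± 0.35, Ddit3 by 3.08 ± 0.70 and Trib3 by 2.92 ± 0.29. From 6 h to 12 h, 3 of the 7 were lower and 0 higher, where 16.8% of all tested genes were lower. Any part of this in the values of the 10 was not tested. Dusp4 stood at 437, 412 and 316 CPM in DMSO at 2 h, at 56.6, 85.1 and 45.1 at 6 h and at 221 and 218 at 12 h. The log2 differences were -2.64 ± 0.37 (edgeR adjusted p = 1.3e-04) from 2 h to 6 h and 1.82 ± 0.38 (0.0037) from 6 h to 12 h. With an offset for transcript length and GC content they were -3.16 and 2.35.

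Spred1 had the same course in vehicle, at 158, 173 and 120 CPM at 2 h, 52.2, 66.7 and 37.4 at 6 h and 109 and 102 at 12 h. Its exons, 6784 bases in all, are the longest of the 10, though the offset uses the longest transcript. With the offset for length and GC content its difference from 2 h to 6 h went from -1.53 ± 0.34 to -0.26 (edgeR adjusted p = 0.18), and that from 6 h to 12 h from 1.02 ± 0.37 to -0.15 (0.54). The call from 6 h to 12 h also ended with total-count scaling (0.084), with the replicate block (0.076), and without DMSO 6 h replicate 1 or 3 or either 12 h DMSO library (0.084 to 0.18). The Spred1 courses in vehicle thus depended on the offset, and the Dusp4 courses kept their calls under it.

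Dusp5 had another course in vehicle, at 101, 94.2 and 104 CPM at 2 h, 129, 111 and 181 at 6 h and 24.5 and 26.8 at 12 h. The log2 difference from 6 h to 12 h was -2.45 ± 0.32 (edgeR adjusted p = 1.6e-04; -1.75 with the offset). Dusp2 was lower at 12 h than at 6 h too (-1.46 ± 0.44, adjusted p = 0.021), but with the offset the difference was -0.26 (0.69). That call also ended with total-count scaling (0.094) and without either 12 h DMSO library (0.15 and 0.1). Between these groups 4 of the 10 were called, Dusp4 and Spred1 higher and Dusp2 and Dusp5 lower, where 18.7% of all tested genes were called higher, 16.8% lower and 35.4% in all.

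The other calls from 2 h to 6 h in vehicle were Dusp1 (-1.35 ± 0.43), Dusp6 (-1.21 ± 0.41), Dusp10 (-0.93 ± 0.19), Spry2 (-0.70 ± 0.24) and Spry4 (-1.32 ± 0.22). Dusp1 stood at 257 CPM in DMSO 2 h replicate 3, the library of high mitochondrial share, against 150 and 147 in the other two. Without it Dusp1 was no longer called (-1.03, edgeR adjusted p = 0.084), nor without DMSO 6 h replicate 3 (0.08). With total-count scaling Dusp1 (0.062), Dusp6 (0.083) and Spry2 (0.078) were not called. The Dusp6 call further ended without DMSO 2 h replicate 1 or 2 or DMSO 6 h replicate 1 or 3 (0.051 to 0.11). The Spry2 call ended without DMSO 2 h replicate 1 or 2 or DMSO 6 h replicate 3 (0.082 to 0.12), and without the filter on low counts (0.053).

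The order of levels per kilobase shifted with these courses. In thapsigargin at 2 h Dusp4 (176 ± 2.6 CPM per kb, SD, n = 3) was followed by Dusp6 (65.9 ± 1.54) and Spry2 (63 ± 3.3), which did not differ beyond their spread. Dusp1 (44.4 ± 2.11), Dusp2 (44.2 ± 0.979) and Dusp5 (41.7 ± 0.428) came next. Dusp8 (23 ± 0.55), Dusp10 (21.9 ± 1.28), Spred1 (21.2 ± 0.338) and Spry4 (16.3 ± 0.598) were lowest. In DMSO at 6 h Dusp5 led at 56.6 ± 14.7, Dusp10, Dusp4, Dusp1, Dusp6 and Spry2 lay between 23.6 and 16.7, and Spred1, Dusp2, Dusp8 and Spry4 between 7.68 and 3.19. In thapsigargin at 6 h Dusp6 stood at 4.43 ± 2.23 and Spry4 and Dusp2 were lowest, at 2.21 ± 0.297 and 2.45 ± 0.368.

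At 12 h Dusp4 led again, with 80.2 ± 0.823 CPM per kb in DMSO and 63.5 ± 2.89 in thapsigargin (SD, n = 2). In thapsigargin Dusp10 (15.9 ± 0.519) followed, and Spry4 was lowest at 0.497 ± 0.0667. In recovery Dusp5 (29 ± 10.8, n = 3), Dusp4 (26.1 ± 14.2), Dusp1 (24.2 ± 13.7) and Dusp10 (23.2 ± 2.6) overlapped, and Spry4 was again lowest at 1.81 ± 0.603.

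Likeness of pattern was described by Pearson's r of log2(CPM + 0.5) over the 19 libraries, among 9908 genes whose mean reached 5 CPM. The libraries share groups, depth and the trend with transcript length, so r is a description and no test. Dusp6 was most like Errfi1 (r = 0.984), and Spry4 was most like Ccn2 (0.969) and Hbegf (0.965). For Spry2 the closest were Kctd11 (0.937), Iffo2 (0.929) and Egr3 (0.926), and for Dusp2 Ccno (0.921), Junb (0.899) and Tcim (0.898). Spred1 was most like Spin1 (0.988), Dusp1 like Cd200 (0.976), Dusp5 like Tspan5 (0.967), Dusp10 like Cd276 (0.962) and Dusp8 like Zfp703 (0.936). Among the 10 themselves the highest were Dusp4 with Spred1 (0.95), Dusp1 with Dusp6 (0.91), Dusp2 with Spry2 (0.90) and Spry2 with Spry4 (0.89).

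In the GRCm38 annotation (GENCODE M21) the genes lie apart, except that Dusp2 and Spred1 share chromosome 2. Dusp1 (ENSMUSG00000024190) is at chromosome 17, 26505590 to 26562128 on the minus strand, where exons of the antisense gene Ergic1 overlap its own. Dusp2 (ENSMUSG00000027368) is at chromosome 2, 127336159 to 127338376, and Dusp4 (ENSMUSG00000031530) at chromosome 8, 34807297 to 34819894. Dusp5 (ENSMUSG00000034765) is at chromosome 19, 53529109 to 53542431, and Dusp6 (ENSMUSG00000019960) at chromosome 10, 99263231 to 99267489. These 4 are on the plus strand. Dusp8 (ENSMUSG00000037887) is at chromosome 7, 142079490 to 142095843 on the minus strand, and Dusp10 (ENSMUSG00000039384) at chromosome 1, 184013302 to 184075636 on the plus strand. Spry2 (ENSMUSG00000022114) is at chromosome 14, 105891947 to 105896819 and Spry4 (ENSMUSG00000024427) at chromosome 18, 38586247 to 38601415, both on the minus strand. Spred1 (ENSMUSG00000027351) is at chromosome 2, 117121374 to 117182279 on the plus strand. Where exons of antisense genes overlap and counting did not use strand, reads of the partners cannot be told apart.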

How the data were processed

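The authors' trimming and alignment used Trim Galore and STAR 2.5.3a on build mm10, per the submitters' processing notes, which also list bedtools 2.31.0 and DESeq2. Each library's deposited file gives raw counts per gene. How reads were counted, with or without strand, and on which annotation, is not given in the sources used here. The 5 lines of unassigned reads, 13.72% to 28.74% of all counted reads, were left out. Groups came from the sample titles and treatments. Of 55401 gene identifiers, 55141 matched GENCODE M21 by base identifier.

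Counts were filtered by filterByExpr, scaled by TMM and fitted with edgeR 4.0.16 (R 4.3.3) in 1 quasi-likelihood model of 7 group means (common biological coefficient of variation 0.352), tested on simulated data. P-values were adjusted over 18039 genes in each of 9 comparisons. Alternatives were RLE normalization, total-count scaling, no filter on low counts, a replicate block, leaving out libraries, and DESeq2 1.42.0. Offsets for the length and GC content of each gene's longest transcript were another. Tables and plots used Python 3.11.15.

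The 10 genes and the lists were chosen with earlier results of these data known. All 10 are given in each comparison, list genes are counted, and the 3 called genes with the largest change may be named, with stress genes as a check and the 3 genes of most alike pattern. Not every gene this rule allows is named. Myc at 6 h was named after its values were seen, as the sole transcript of its list called higher. Larger counts give less counting error, and the spread between libraries limits the tests.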

Additional observations from a re-analysis of the deposited data

Results flagged for a closer look

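In 4 of the 10 genes the thapsigargin response at 6 h differed from that at 2 h by edgeR's test of the difference itself. Of all tested genes, 3.99% were called in this comparison, 1.87% lower and 2.12% higher. The change, on the log2 scale, was -4.73 for Dusp2, -2.68 for Dusp6, -1.96 for Spry2 and -1.56 for Spry4. With total-count scaling the calls for Dusp6 (edgeR adjusted p = 0.095) and Spry4 (0.14) ended. Between 12 h and 6 h the Spry4 response differed by -1.65, a call that ended without any 1 library.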

How the results depend on the processing

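The 10 genes in 9 comparisons gave 90 values, of which 32 were called and 13 stayed called under every alternative run. Over all tested genes, the share called ran from 0.327% for recovery against DMSO to 49.6% for DMSO at 6 h against 2 h. The 9 comparisons include those between vehicle groups alone. All 32 calls of the 10 genes held with RLE normalization, with DESeq2 and without both libraries of high mitochondrial share. Total-count scaling kept 15. The number of genes called was then 3 at 2 h (with 2.87% of all genes), 3 at 6 h (16.1%) and 1 at 12 h (8.57%). It was 1 for recovery against thapsigargin (18.5%) and 0 for the 12 h response against 6 h (0.166%). Without the filter on low counts it was 6 for recovery against thapsigargin (12.8% of all genes) and 0 for the 12 h response (0.234%). With the length and GC offsets it was 4 at 12 h (18.3% of all genes), 5 for recovery against thapsigargin (31.4%) and 2 for recovery against DMSO (1.10%). With DESeq2 it was 5 and 1 for recovery (27.3% and 2.57%). Without both libraries of high mitochondrial share it was 7 at 12 h, 8 and 2 for recovery, 3 for the 12 h response and 8 for DMSO at 12 h against 6 h, where that setting called 25.5%, 35.1%, 2.12%, 4.11% and 56.6% of all genes. Leaving out 1 library gave 3 to 4 at 2 h (1.78% to 3.73% of all genes) and 4 to 6 at 6 h (16.1% to 18.5%). For recovery it gave 1 to 7 against thapsigargin (19.6% to 29.9%) and 0 to 1 against DMSO (0.122% to 0.699%). It gave 4 for the 6 h response against 2 h (2.35% to 4.42%) and 4 to 7 for DMSO at 6 h against 2 h (34.4% to 48.9%). Counts of comparisons with a 12 h group are not listed, since that group can be left with 1 library. The cause was not tested.

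Of the feedback inhibitor genes, the replicate block left 0 called for the 12 h response against 6 h. That setting called 0.394% of all genes there. It ended 2 of the 32 calls of the feedback inhibitor genes and changed no other call of theirs. These 2 were Spry4 for the 12 h response and Spred1 in vehicle at 12 h. Deviations of same-numbered libraries from their group means correlated from -0.93 to 0.93. With 2 or 3 libraries in a group, the deviations within it depend on each other. These values therefore cannot tell whether the number pairs the libraries. The deposited files of thapsigargin at 12 h are numbered 2 and 3 where the titles, used here, give 1 and 2, and the block at 12 h rests on the titles.

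The 1 called value that turned its sign was Spred1 in DMSO at 12 h against 6 h (-0.15 with the length and GC offsets). Values that were not called and turned were as follows. At 2 h, Spred1 was 0.14 with total-count scaling (-0.20 to 0.05 leaving out 1 library), and Dusp1 was 0.05 without both high-mitochondrial libraries. For recovery against thapsigargin, Dusp5 was -0.03 with total-count scaling and -0.07 without both libraries (-0.07 to 0.48 leaving out 1). For recovery against DMSO, Dusp10 was 0.01 with RLE and with DESeq2, 0.10 with the offsets and 0.02 without both libraries, where Dusp8 was -0.01 and Spred1 0.19. Leaving out 1 library there gave -0.48 to 0.21 for Spred1, -0.17 to 0.55 for Dusp1, -0.11 to 0.05 for Dusp10 and -0.33 to 0.48 for Dusp4. For the 6 h response against 2 h, Dusp10 was -0.20 without both libraries (-0.11 to 0.32 leaving out 1). For the 12 h response, Dusp1 was -0.07 with total-count scaling, -0.0010 without the filter and -0.10 with the offsets (-0.25 to 0.33), Dusp6 was -0.07 with total-count scaling and -0.01 with the block (-0.32 to 0.53), Spred1 was 0.03 with the offsets (-0.54 to 0.05), and Spry2 ran from -0.34 to 0.02. In vehicle at 6 h against 2 h, the offsets gave -0.61 for Dusp2 and -0.22 for Dusp5. At 12 h against 6 h they gave 0.24 for Dusp1, and Dusp6 ran from -0.55 to 0.07 leaving out 1 library.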
